A study of Mus musculus with 6 samples.

Results

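The genes described here are the transcriptional feedback genes of the RAS to ERK pathway, whose mRNA levels are commonly read as a record of MAPK activity. They were chosen by gene symbol, with earlier results of these data known, and no threshold on a measured value entered the choice. Of the 10 genes named, 9 were analysed among the 22651 genes of the deposited tables, and all 9 passed the filter on low counts that left 13969 genes for testing. They are the MAP kinase phosphatases Dusp4 and Dusp6, the Sprouty genes Spry1, Spry2 and Spry4, the Sprouty-related genes Spred1 and Spred2, and the ETS transcription factors Etv4 and Etv5. The other gene named, Dusp5, was not analysed here.

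Telencephalon, the part of the forebrain that includes the cortex and the striatum, was taken at postnatal day 0 from 3 WT and 3 TSC1-KO mice for mRNA-sequencing. Mice of both groups carried floxed alleles of Tsc1 on both chromosomes (TSC1 flox/flox). The WT mice had no Cre (Emx1 +/+), and the TSC1-KO mice had Cre recombinase at the Emx1 locus (Emx1-cre/+). Emx1-driven Cre acts in the progenitors of the dorsal telencephalon and their progeny and leaves Tsc1 in most subpallial cells, vessels and microglia, so each TSC1-KO library is a mixture of recombined and unrecombined cells. In such bulk tissue, fewer cells of a type and less RNA per cell cannot be told apart.

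Growth factors such as FGFs and EGF family ligands bind receptor tyrosine kinases, which load RAS with GTP and so activate RAF, MEK and ERK in turn. ERK then induces genes whose products act back on the pathway. DUSP proteins remove the activating phosphates from MAP kinases, Sprouty and SPRED proteins hold back signalling at the level of RAS and RAF, and the PEA3 family factors ETV4 and ETV5 carry the FGF response on to other genes. In the embryonic telencephalon these genes are known for their response to FGF signalling in progenitors. TSC1 acts in another branch, in a complex with TSC2 that restrains mTORC1. The comparison of WT and TSC1-KO mice asks whether the feedback genes differ when that complex is lost.

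Promoter sequences show what a readout of ERK can rest on, since some ERK-induced genes are held down by the repressor Capicua, which ERK inactivates. RefSeq promoter windows (GRCm38.p6, from 250 bases before the transcription start to 50 after it) were at hand for 6 of the 9 genes, as 7 windows, because Etv5 has 2. Entries for Dusp4, Etv4 and Spry4 were missing. The Capicua octamers TGAATGAA, TGAATGGA, TCAATGAA and TCAATGGA were searched for on both strands and were found in 2 of the 7 windows, those of Dusp6 and Spry2, against 3.835% of all 32851 windows. The ETS motif CCGGAAGT (3.887% of all windows), the cyclic AMP response element TGACGTCA (1.79%) and the AP-1 motif TGANTCA (7.808%), each also sought on both strands and none overlapping the Capicua matches, were found in 0 of the 7. The upstream 250 bases of both genes with a match are shown 5′ to 3′ on the strand of the gene, from chr10:99262981-99263230 (plus strand) for Dusp6 and from chr14:105896820-105897069 (minus strand) for Spry2, with the matches in capitals.
Dusp6: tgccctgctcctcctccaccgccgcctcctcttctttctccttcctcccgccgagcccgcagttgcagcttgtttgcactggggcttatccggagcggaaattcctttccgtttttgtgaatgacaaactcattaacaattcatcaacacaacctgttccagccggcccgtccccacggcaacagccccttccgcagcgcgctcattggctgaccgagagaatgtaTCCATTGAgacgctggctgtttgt
Spry2: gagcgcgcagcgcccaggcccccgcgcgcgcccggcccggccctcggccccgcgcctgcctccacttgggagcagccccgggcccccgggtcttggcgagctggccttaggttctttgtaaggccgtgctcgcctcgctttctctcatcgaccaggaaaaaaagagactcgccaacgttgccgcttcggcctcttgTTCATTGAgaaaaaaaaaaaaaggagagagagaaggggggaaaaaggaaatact
The Dusp6 match begins 24 bases before the transcription start, the Spry2 match begins 54 bases before it, and both read as the reverse complement of an octamer on the strand shown. A second match in Dusp6 lies just inside the transcribed part of its window. A match describes letters in the sequence and is not a bound site.

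The libraries held between 14119365 and 17772865 expected counts, so that 3 counts, the least taken as a detection, corresponded to at most 0.2125 CPM (counts scaled to the library total), and each of the 9 genes had at least 106 counts in every library. Tsc1 was 36.9 ± 11.7 TPM (SD, n = 3) in WT and 23.7 ± 2.92 TPM in TSC1-KO (log2 fold change -0.66, SE 0.18, adjusted p = 0.09998 by edgeR), a whole-gene value that also counts exons left by Cre and cells without Cre. The telencephalic gene Emx1, which holds the Cre insertion, was 43.2 ± 3.86 TPM in WT and 37.9 ± 2.53 TPM in TSC1-KO. Across all genes tested, edgeR called 212 genes at an adjusted p below 0.05 (1.52%), of which 92 were lower in TSC1-KO (0.659%) and 120 were higher (0.859%). The median log2 fold change of all genes was -0.0027.

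Etv4 and Dusp4 were down-regulated in TSC1-KO telencephalon, Etv4 by 37.0% and Dusp4 by 28.3%, and they were the 2 feedback genes of 9 that passed the test, beside 1.52% of all genes. Their family members did not pass. Etv5 and Dusp6 had log2 fold changes of 0.05 and -0.09, and 0 of the 5 Sprouty and Spred genes were called. No feedback gene was called higher. TPM, the share of a transcript among all transcripts after correction for length, is given for each mouse below in the order of replicates 1, 2 and 3.

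**Figure D1:**
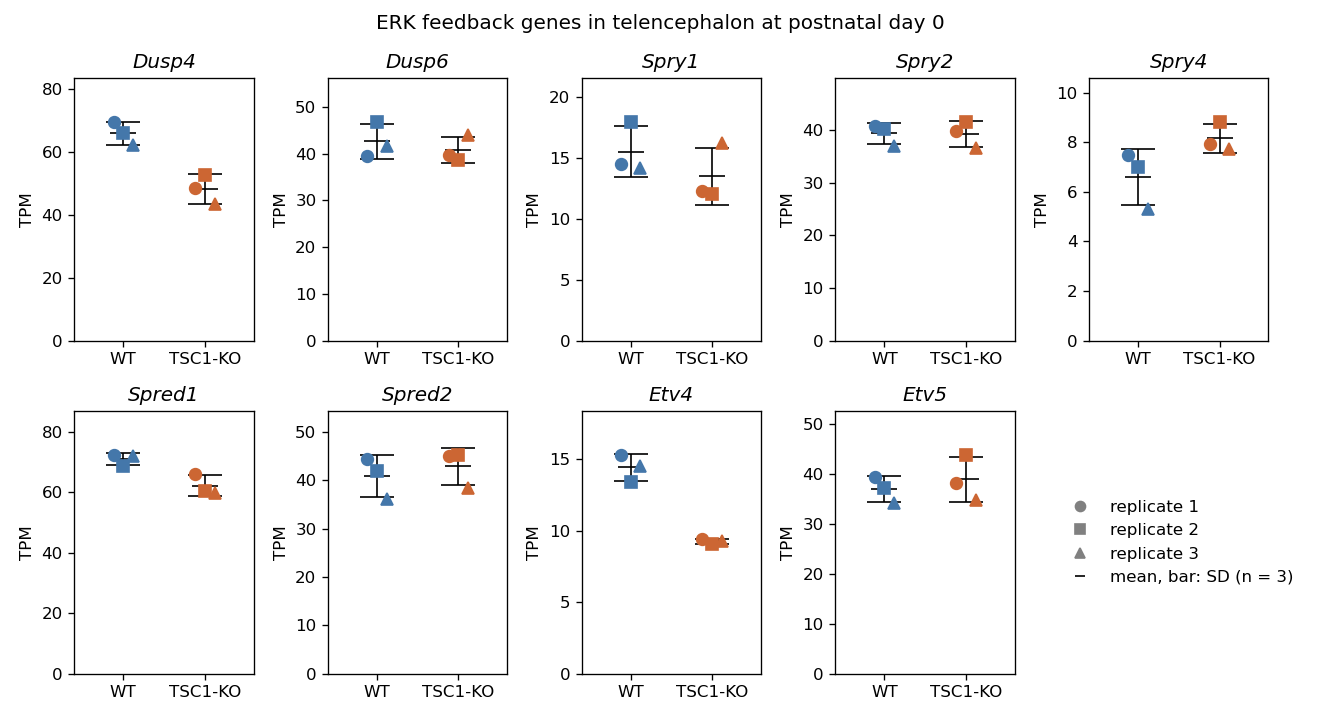
TPM (vertical axis, from 0) of each feedback gene in 3 WT mice (blue) and 3 TSC1-KO mice (orange), with symbols for replicates 1, 2 and 3 and with the mean and SD as bars. The points of the groups are apart for Dusp4, Etv4, Spred1 and Spry4, and Etv4 shows the smallest spread among TSC1-KO mice (SD 0.186 TPM).

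Of the phosphatases, Dusp4 encodes a nuclear enzyme that acts on ERK, JNK and p38 (chr8:34807297-34819894, plus strand, GRCm38). Its level was 69.4, 65.9 and 62.3 TPM in the WT mice and 48.4, 52.7 and 43.3 TPM in the TSC1-KO mice. Every TSC1-KO mouse lay below every WT mouse. The means were 65.9 ± 3.57 TPM (SD, n = 3) in WT and 48.2 ± 4.70 TPM in TSC1-KO, and the log2 fold change was -0.48 (SE 0.088, 95% interval -0.68 to -0.28, adjusted p = 0.0402 by edgeR's quasi-likelihood test).

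Dusp6 encodes the cytoplasmic phosphatase that is specific for ERK (chr10:99263231-99267489, plus strand). It measured 39.6, 46.7 and 41.5 TPM in WT and 39.7, 38.6 and 44.0 TPM in TSC1-KO. The groups overlapped, with the highest value in a WT mouse and the lowest in a TSC1-KO mouse. The log2 fold change was -0.09 with a 95% interval of -0.32 to 0.14 (adjusted p = 0.671 by edgeR), an interval that reaches from a level 20.1% lower to one 10.1% higher.

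Among the PEA3 factors, Etv4 (chr11:101769742-101785371, minus strand) gave 15.3, 13.5 and 14.6 TPM in WT and 9.44, 9.07 and 9.28 TPM in TSC1-KO. The TSC1-KO mice lay within 0.4 TPM of each other and all were below the WT mice. The means were 14.4 ± 0.931 TPM and 9.26 ± 0.186 TPM (SD, n = 3), and the log2 fold change was -0.67 (SE 0.12, 95% interval -0.94 to -0.40, adjusted p = 0.0378 by edgeR). These levels rest on 177 to 203 counts in each WT library and on 106 to 124 in each TSC1-KO library, the fewest of the feedback genes in TSC1-KO.

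Etv5 (chr16:22381309-22439719, minus strand) encodes a close paralog of ETV4 and was measured at the higher level. Its values were 39.5, 37.2 and 34.3 TPM in WT and 38.2, 43.8 and 34.8 TPM in TSC1-KO. The highest and the lowest of the TSC1-KO values spanned most of the WT range, and the groups overlapped. The log2 fold change was 0.05 (95% interval -0.17 to 0.27, adjusted p = 0.830 by edgeR).

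The Sprouty proteins bind adaptors and RAF and dampen signals from FGF and EGF receptors. Spry1 (chr3:37639947-37644598, plus strand) was 14.5, 18.0 and 14.2 TPM in WT and 12.27, 12.02 and 16.20 TPM in TSC1-KO. Its groups overlapped through TSC1-KO replicate 3, and its interval was the widest of the 9 (log2 fold change -0.23, 95% interval -0.60 to 0.14, adjusted p = 0.494 by edgeR). The log2 fold change was -0.11 without WT replicate 2, -0.15 without TSC1-KO replicate 1 and -0.40 without TSC1-KO replicate 3. Spry2 (chr14:105891947-105896819, minus strand) was 40.8, 40.2 and 37.0 TPM in WT and 39.7, 41.5 and 36.6 TPM in TSC1-KO. Spry2 had nearly equal means of 39.3 ± 2.05 TPM and 39.3 ± 2.50 TPM (SD, n = 3), and its 95% interval ran from -0.23 to 0.17 on the log2 scale (adjusted p = 0.877 by edgeR).

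Spry4 (chr18:38586247-38601415, minus strand) was 7.47, 7.01 and 5.30 TPM in WT and 7.94, 8.81 and 7.71 TPM in TSC1-KO. It was the feedback gene whose TSC1-KO values all lay above the WT values, by a margin of 0.24 TPM between the nearest mice. The log2 fold change of 0.28 (SE 0.14, 95% interval -0.04 to 0.60) did not pass the test (adjusted p = 0.341 by edgeR), and it was 0.16 without WT replicate 3.

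The SPRED proteins recruit neurofibromin, the GTPase-activating protein that switches RAS off. Spred1 (chr2:117121374-117182279, plus strand) was 72.4, 68.8 and 72.0 TPM in WT and 66.2, 60.4 and 59.9 TPM in TSC1-KO. All TSC1-KO values were below all WT values, and the log2 fold change was -0.22 (SE 0.071, 95% interval -0.38 to -0.06). Its unadjusted p of 0.0114 did not hold over all genes tested (adjusted p = 0.145 by edgeR). Spred2 (chr11:19924375-20024026, plus strand) was 44.5, 41.9 and 36.1 TPM in WT and 44.9, 45.2 and 38.4 TPM in TSC1-KO. Its groups overlapped, and its log2 fold change was 0.04 (95% interval -0.18 to 0.26, adjusted p = 0.858 by edgeR).

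**Figure D2:**
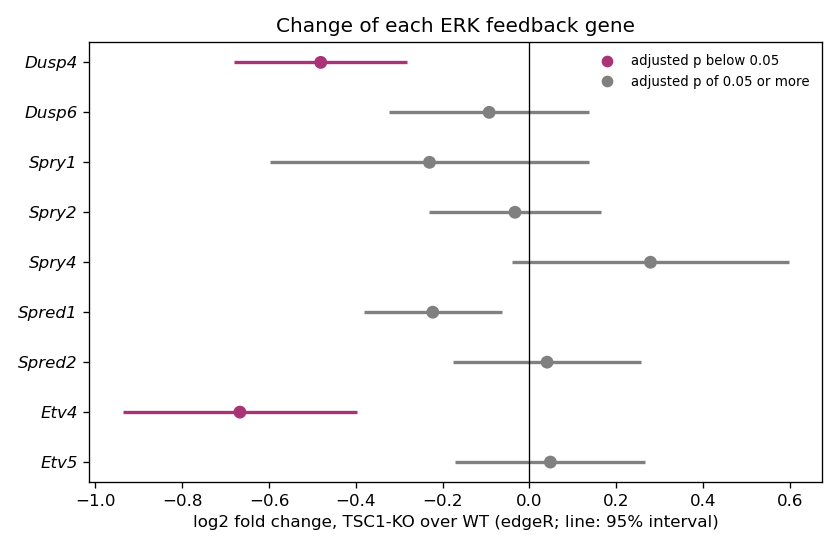
Log2 fold change of TSC1-KO over WT (horizontal axis) for each feedback gene, from edgeR, with its 95% interval as a line and genes with an adjusted p below 0.05 in purple. The intervals of Dusp4, Spred1 and Etv4 lie below 0, and those of the other 6 genes include 0.

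As a group, 6 of the 9 feedback genes had a lower fitted level in TSC1-KO and 3 a higher one, with a median log2 fold change of -0.09 beside -0.0027 over all genes tested. The 2 calls, both lower, were 22.2% of the genes, beside 0.659% of all genes called lower. These shares are a description and not a blind comparison. The paper had already reported Dusp4 as down-regulated by TSC1 deletion, and the genes were chosen with earlier results of these data known. The TSC1-KO values of 3 genes (Dusp4, Etv4 and Spred1) lay wholly below the WT values, where 11.7% of all genes did so, and those of 1 gene (Spry4) lay wholly above, where 10.9% did so, so that 4 of the 9 did not overlap in either direction, beside 22.7% of all genes. An unadjusted p below 0.05 was reached by 3 of the 9 and by 18% of all genes. For the 5 Sprouty and Spred genes, of which edgeR and DESeq2 both called 0, that count was 1.

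The calls of Dusp4 and Etv4 each rested on which mice were in the comparison, as did the number of calls over all genes. Dusp4 no longer passed without WT replicate 2 (adjusted p = 0.184 by edgeR), WT replicate 3 (0.127), TSC1-KO replicate 1 (0.172) or TSC1-KO replicate 2 (0.0881), while its log2 fold change stayed between -0.56 and -0.42 whichever mouse was left out. Etv4 was likewise lost without WT replicate 2 (0.132), WT replicate 3 (0.142), TSC1-KO replicate 1 (0.160) or TSC1-KO replicate 2 (0.149), with log2 fold changes between -0.71 and -0.64. Both genes passed without WT replicate 1 and without TSC1-KO replicate 3. Over all genes, edgeR made 29 calls without WT replicate 2 (0.206%) and 35 without WT replicate 3 (0.248%). It made 37 without TSC1-KO replicate 1 or 2 (0.262% each). Without WT replicate 1 it made 447 (3.18%), and without TSC1-KO replicate 3 it made 799 (5.68%).

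Since a ratio of 2 genes within a library does not depend on its depth, the members of each family were also set against each other in each mouse, in 6 pairs chosen after their values were seen. The ratio of Etv4 to Etv5 was 0.387, 0.362 and 0.425 in WT and 0.247, 0.207 and 0.266 in TSC1-KO. The ratio of Dusp4 to Dusp6 lay between 1.41 and 1.75 in WT and was 1.22, 1.37 and 0.984 in TSC1-KO, so that Dusp4 was the more abundant phosphatase in every WT mouse and in 2 of the 3 TSC1-KO mice. The ratio of Spred1 to Spred2 ran from 1.63 to 1.996 in WT and from 1.34 to 1.56 in TSC1-KO, and that of Spry2 to Spry4 from 5.46 to 6.98 and from 4.71 to 5.004. In these 4 pairs the groups did not overlap, with differences of the mean log2 ratio of -0.71, -0.39, -0.27 and -0.32. Each of these pairs holds a gene whose own TPM already did not overlap between the groups (Etv4, Dusp4, Spred1 or Spry4). The ratios therefore restate those levels and add no separate support, and the share of such ratios among other gene pairs was not computed. An exact two-sided permutation test of 3 mice against 3 cannot give a p below 0.1, which each of the 4 pairs reached (0.15 after adjustment over the 6 pairs). The ratios of Spry1 to Spry2 and of Spry1 to Spry4 overlapped between the groups (exact permutation p = 0.4 and 0.2).

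**Figure D3:**
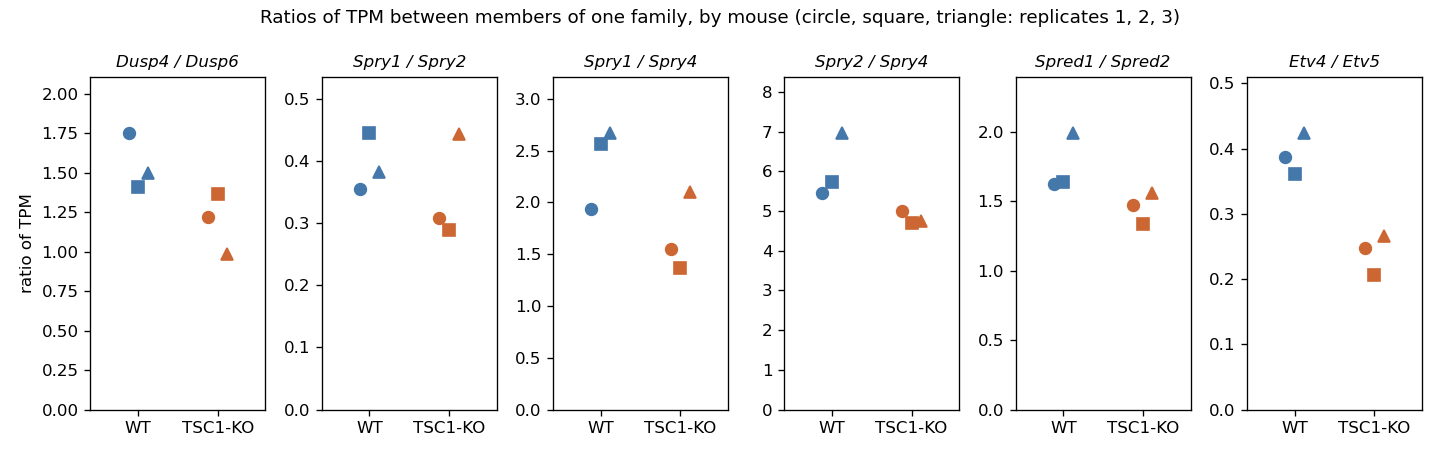
Ratio of TPM between members of a family (vertical axes, from 0) in each WT mouse (blue) and TSC1-KO mouse (orange). The ratio of Etv4 to Etv5 lies between 0.362 and 0.425 in WT and between 0.207 and 0.266 in TSC1-KO, and the groups are also apart for Dusp4 over Dusp6, Spry2 over Spry4 and Spred1 over Spred2.

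On the length-corrected TPM scale the feedback genes of WT telencephalon ranked from Spred1 (71.1 TPM) and Dusp4 (65.9), which overlapped between mice, through Dusp6 (42.6), Spred2 (40.8), Spry2 (39.3) and Etv5 (37.0), neighbours that overlapped in turn, to Spry1 (15.5) and Etv4 (14.4), which overlapped, and Spry4 (6.59). The steps from Dusp4 to Dusp6, from Etv5 to Spry1 and from Etv4 to Spry4 exceeded the spread between mice. In TSC1-KO the ranges of Spred1 (62.1 TPM) and Dusp4 (48.2) did not overlap, as they also did not in WT on the FPKM scale, while Dusp4 overlapped the next gene, Spred2 (42.9). Spry1 (13.5), Etv4 (9.26) and Spry4 (8.15) were apart from each other there.

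Summed over the 9 genes, the feedback transcripts came to 343, 339 and 317 TPM in WT and 307, 312 and 290 TPM in TSC1-KO. The phosphatase pair summed to between 104 and 113 TPM in WT and between 87.4 and 91.3 TPM in TSC1-KO, without overlap. The Sprouty genes summed to between 56.5 and 65.2 TPM and between 59.9 and 62.3 TPM, the Spred pair to between 108 and 117 TPM and between 98.3 and 111 TPM, and the ETS pair to between 48.8 and 54.8 TPM and between 44.1 and 52.9 TPM, each with overlap. The mice also differed among themselves: on the scale of normalized CPM, WT replicate 3 was the lowest WT mouse for 5 genes (Dusp4, Spry2, Spry4, Spred2 and Etv5) and TSC1-KO replicate 2 the highest TSC1-KO mouse for the same 5.

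The genes whose levels followed those of 3 feedback genes most closely were found by the root-mean-square distance between log2 CPM values, each centred on its own mean, over the 6 mice. For Etv4 they were Fam181b (0.0378), Dlx1as (0.0531) and Rgs16 (0.0542), where Etv4 itself varied by 0.333 around its mean. Dlx1as lies antisense to Dlx1, and the library kit did not mark strand, so that its reads and those of Dlx1 cannot be told apart. For Dusp4, which varied by 0.255, they were Edaradd (0.0568), Sntb2 (0.0620) and Pcbd1 (0.0657). For Spred1, which varied by 0.119, they were Hmgb1 (0.0255), Cstf1 (0.0267) and 9130221H12Rik (0.0312). These distances describe 6 libraries.

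The rest of the pathway was followed in 8 lists of its other genes, from ligands to induced genes, of which 123 genes were tested. Of these, 3 were called lower and 2 higher, 4.07% beside 1.52% of all genes, and their median log2 fold change was -0.02. On the other measures they were near all genes. An unadjusted p below 0.05 was reached by 24 (19.5%), beside 18% of all genes. The TSC1-KO values lay wholly below the WT values for 15 (12.2%) and wholly above for 12 (9.76%), beside 11.7% and 10.9% of all genes. The called genes were ligands, receptors and 1 induced gene.

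Of the 11 EGF family ligands and receptors tested, the ligand gene Tgfa and the receptor gene Egfr were down-regulated. Tgfa was 60.2, 59.4 and 58.4 TPM in WT and 28.2, 28.4 and 39.4 TPM in TSC1-KO. The groups were far apart, and its log2 fold change was -0.92 (SE 0.13, adjusted p = 0.0193 by edgeR). Egfr was 16.04, 14.98 and 14.34 TPM in WT and 12.13, 9.99 and 10.66 TPM in TSC1-KO, also without overlap (log2 fold change -0.48, SE 0.093, adjusted p = 0.0471 by edgeR).

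Among 16 genes of the neurotrophin, PDGF, VEGF, HGF and KIT systems, 2 were up-regulated. Met, which encodes the receptor for hepatocyte growth factor, was 37.8, 30.0 and 27.0 TPM in WT and 54.1, 55.1 and 42.0 TPM in TSC1-KO (log2 fold change 0.65, SE 0.13, adjusted p = 0.0463 by edgeR). Vegfa, the angiogenic ligand, was 31.6, 36.6 and 31.3 TPM in WT and 54.0, 47.1 and 44.0 TPM in TSC1-KO (log2 fold change 0.52, SE 0.099, adjusted p = 0.0460 by edgeR). Both genes were higher in every TSC1-KO mouse than in any WT mouse. Bdnf, a neurotrophin, was also higher in each TSC1-KO mouse, 4.04 against 2.48 TPM, but did not pass (adjusted p = 0.147 by edgeR).

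Among the FGF ligands, Fgf8 was not analysed here. Fgf2, Fgf3, Fgf15, Fgf16, Fgf17, Fgf20 and Fgf22 did not pass the filter on low counts, so edgeR did not test them. The paper's network model gives Fgf3 and Fgf15 as down-regulated. Of 13 FGF ligands and receptors tested, 10 had a lower fitted level and 3 a higher one, and edgeR and DESeq2 called 0, with an unadjusted p below 0.05 for 2. Fgf1 and Fgf18 had the largest differences among those with a mean of at least 1 TPM, with log2 fold changes of -0.45 and -0.43 (adjusted p = 0.526 and 0.572 by edgeR), and both overlapped between the groups. The 2 genes with an unadjusted p below 0.05, Fgf10 and Fgfr4, are named after their values were seen, and they went in opposite directions. Fgf10 was higher in every TSC1-KO mouse than in any WT mouse on the CPM scale, 7.54 against 5.55 TPM (log2 fold change 0.41, adjusted p = 0.125 by edgeR). The receptor gene Fgfr4 was lower in every TSC1-KO mouse on that scale, 0.317 against 0.893 TPM (log2 fold change -1.51, adjusted p = 0.142 by edgeR), at means below 1 TPM.

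The cascade from RAS to ERK held 27 tested genes, of which 18 had a higher fitted level, 9 a lower one and edgeR called 0. An unadjusted p below 0.05 was reached by 4 of them, and DESeq2 called Rasgrf2 alone. The exchange factors that load RAS with GTP had the largest differences, in opposite directions: Rasgrf1 was 16 against 8.74 TPM in TSC1-KO (log2 fold change -0.77, adjusted p = 0.200 by edgeR) and Rasgrf2 20.8 against 33.4 TPM (0.66, adjusted p = 0.0789 by edgeR).

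The paralogs of the feedback genes gave 8 tested genes, of which 7 had a lower fitted level, and edgeR and DESeq2 called 0, with no unadjusted p below 0.05. The largest differences were those of the phosphatase genes Dusp2, 10.4 against 7.21 TPM (adjusted p = 0.310 by edgeR), and Dusp10, 4.81 against 3.58 TPM (adjusted p = 0.284 by edgeR). The other feedback regulators of receptor signalling numbered 14, of which edgeR called 0 and DESeq2 called Flrt3. Flrt3, which encodes a membrane partner of FGF receptors, was 46.1 ± 3.07 TPM in WT and 36.3 ± 2.47 TPM in TSC1-KO (SD, n = 3), without overlap, and missed the threshold (log2 fold change -0.39, adjusted p = 0.0710 by edgeR). Nf1, the gene for neurofibromin, had a log2 fold change of 0.23 (adjusted p = 0.427 by edgeR).

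Of 15 kinases and transcription factors on which ERK acts, edgeR called 0, an unadjusted p below 0.05 was reached by 3, and DESeq2 called 1, Cic. Ets1 and Ets2, ETS factors that ERK phosphorylates, were lower in every TSC1-KO mouse than in any WT mouse, with log2 fold changes of -0.38 and -0.30 (adjusted p = 0.137 and 0.123 by edgeR). Cic, the gene for Capicua, was named after its values were seen; it was 112 ± 6.77 TPM in WT and 139 ± 9.22 TPM in TSC1-KO (SD, n = 3), with a log2 fold change of 0.29 that did not pass (adjusted p = 0.0953 by edgeR).

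The last list, 19 other genes that ERK induces, had 14 with a lower and 5 with a higher fitted level, and edgeR called 1 gene. DESeq2 also called Fosl2, which was 32.4 TPM in WT and 49.9 TPM in TSC1-KO (log2 fold change 0.60, adjusted p = 0.104 by edgeR). The median log2 fold change of the list was -0.17. Phlda1, an early gene of growth factor responses, was 19.5, 19.3 and 19.9 TPM in WT and 13.7, 11.9 and 13.7 TPM in TSC1-KO, well apart (log2 fold change -0.61, SE 0.12, adjusted p = 0.0473 by edgeR). Ier3 was 5.89 against 3.75 TPM and did not pass (adjusted p = 0.266 by edgeR). Its groups overlapped by 1 mouse of each on the TPM scale and did not overlap on the CPM scale. As with Dusp4 and Etv4, the 5 called genes of the pathway depended on the mice: 0 passed by edgeR without WT replicate 2, without WT replicate 3, without TSC1-KO replicate 1 or without TSC1-KO replicate 2. Egfr and Vegfa were also lost without WT replicate 1, which left 6 calls in the lists, and 12 genes were called without TSC1-KO replicate 3. Calls over all genes were 3.18% without WT replicate 1 and 5.68% without TSC1-KO replicate 3. They were 0.206% to 0.262% in the settings that left 0 calls in the lists.

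**Figure D4:**
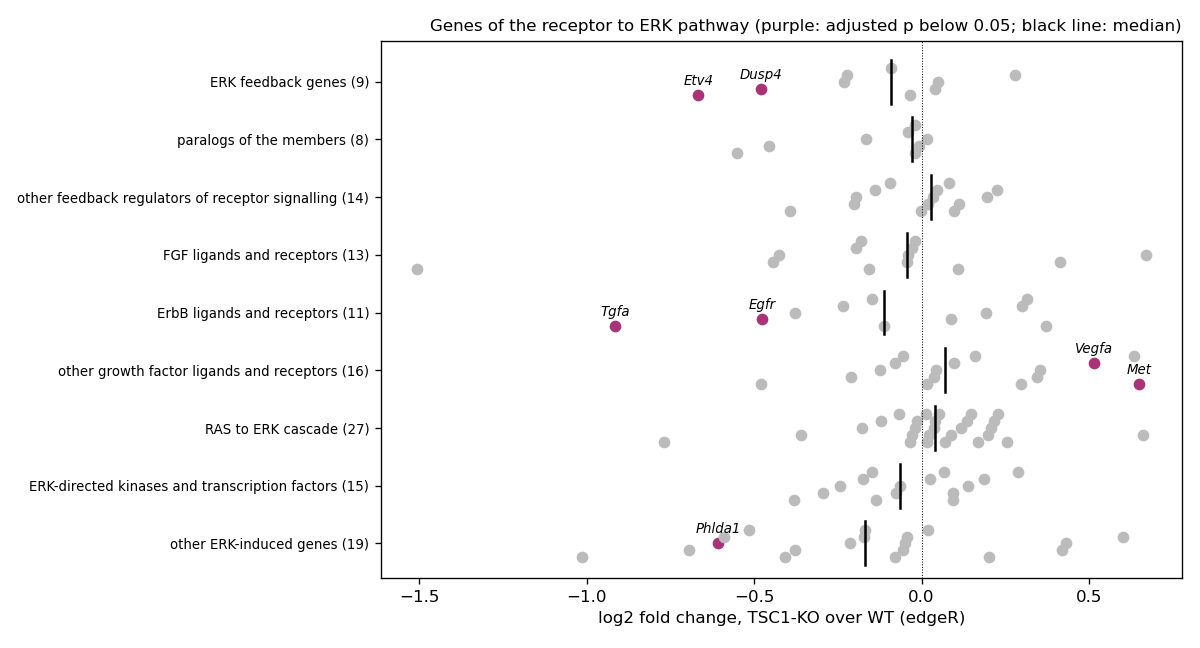
Log2 fold change of TSC1-KO over WT (horizontal axis, edgeR) of each tested gene of the receptor to ERK pathway, by list, with the number of genes in brackets, the median as a black line and genes with an adjusted p below 0.05 in purple and named. The called genes are Etv4 and Dusp4 among the feedback genes and Tgfa, Egfr, Vegfa, Met and Phlda1 in the other lists, whose medians lie between -0.17 and 0.07.

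Markers of cell types also differed between the groups. All 13 markers of the subpallium and striatum had a lower fitted level in TSC1-KO, the median of their log2 fold changes was -1.09, and their summed level was 506, 500 and 581 TPM in WT and 286, 285 and 381 TPM in TSC1-KO. Of these, Gad2, Dlx1, Bcl11b and Lhx6 were called, with log2 fold changes of -1.03, -0.68, -0.56 and -0.54. Bcl11b does not mark these regions alone, since the paper also stained its protein in cortex at postnatal day 0 and reports it lower there in the mutants. All 6 choroid plexus markers had lower fitted levels as well, with sums of 1176 to 2473 TPM in WT and 31.8 to 867 TPM in TSC1-KO. All 6 had an unadjusted p below 0.05 by edgeR, which called 0 of them, while DESeq2 called Folr1, Otx2 and Aqp1. The sums of the subpallial and the choroid plexus markers did not overlap between the groups, and 0 markers of either list were at 0 in every mouse.

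The sums of both lists were lower in the same 3 mice as Dusp4, Etv4, Tgfa and Egfr, and 11 of the 13 subpallial and all 6 choroid plexus markers did not overlap between the groups on the CPM scale. Their part in the result was not tested. TSC1-KO replicate 3, which had the highest subpallial and choroid plexus sums of its group, had the lowest Dusp4 level of all 6 mice. Its Etv4 level of 9.28 TPM and Egfr level of 10.66 TPM lay between those of the other TSC1-KO mice. On the scale of normalized CPM its Etv4 level was the highest of its group, 7.72 against 7.57 and 7.48. Its Tgfa level of 39.37 TPM was the highest of its group, where the others had 28.18 and 28.40 TPM. WT replicate 3 had the highest of both sums in WT. On the CPM scale it had the highest Etv4 level (12.50) and the lowest Dusp4 level (55.6) of the WT mice. Of the subpallial calls, edgeR kept Dlx1 alone without WT replicate 2. It kept none without WT replicate 3, without TSC1-KO replicate 1 or without TSC1-KO replicate 2. Without TSC1-KO replicate 3 it called 12 of the 13 genes, beside 5.68% of all genes.

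The summed levels of the other 8 marker lists overlapped between the groups, although single genes within them did not. Cortical excitatory neuron markers summed to between 1610 and 1883 TPM in WT and between 1767 and 2226 TPM in TSC1-KO, and markers of radial glia and progenitors, the cells in which Etv4, Etv5 and the Sprouty genes are best known, to between 3164 and 3755 TPM and between 3084 and 3264 TPM. Of the 10 progenitor markers, 9 had a lower fitted level in TSC1-KO (median log2 fold change -0.16), and Fabp7 made up most of the sum, with 2610 TPM in WT. Sox2, a progenitor marker, was called lower (78.7 ± 2.96 against 58.0 ± 2.82 TPM, log2 fold change -0.47, adjusted p = 0.0297 by edgeR). Gfap, an astrocyte marker, was called higher (38.3 ± 8.15 against 82.9 ± 8.62 TPM, log2 fold change 1.09, adjusted p = 0.00683 by edgeR), while the 7 astrocyte markers together summed to between 240 and 367 TPM in WT and between 287 and 331 TPM in TSC1-KO. By edgeR, both calls were lost without WT replicate 2 or TSC1-KO replicate 1, and that of Sox2 also without WT replicate 3 or TSC1-KO replicate 2. Of the 9 endothelial and mural markers, 8 had a lower fitted level (median -0.32), 4 did not overlap between the groups on the CPM scale and 5 had an unadjusted p below 0.05. Of these 9, edgeR called 0 and DESeq2 called Cldn5, Cdh5 and Tek. All 4 blood markers tested had a lower fitted level (median -0.98) and an unadjusted p below 0.05, and edgeR and DESeq2 called 0. The part of the progenitor, vascular and blood markers in the result for Dusp4 and Etv4 was likewise not tested. The sums were 473 to 573 and 563 to 574 TPM for telencephalic genes, 179 to 227 and 173 to 181 TPM for the oligodendrocyte lineage, 290 to 373 and 254 to 299 TPM for endothelial and mural cells, 113 to 153 and 109 to 164 TPM for microglia, and 1695 to 5567 and 1292 to 1783 TPM for blood.

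**Figure D5:**
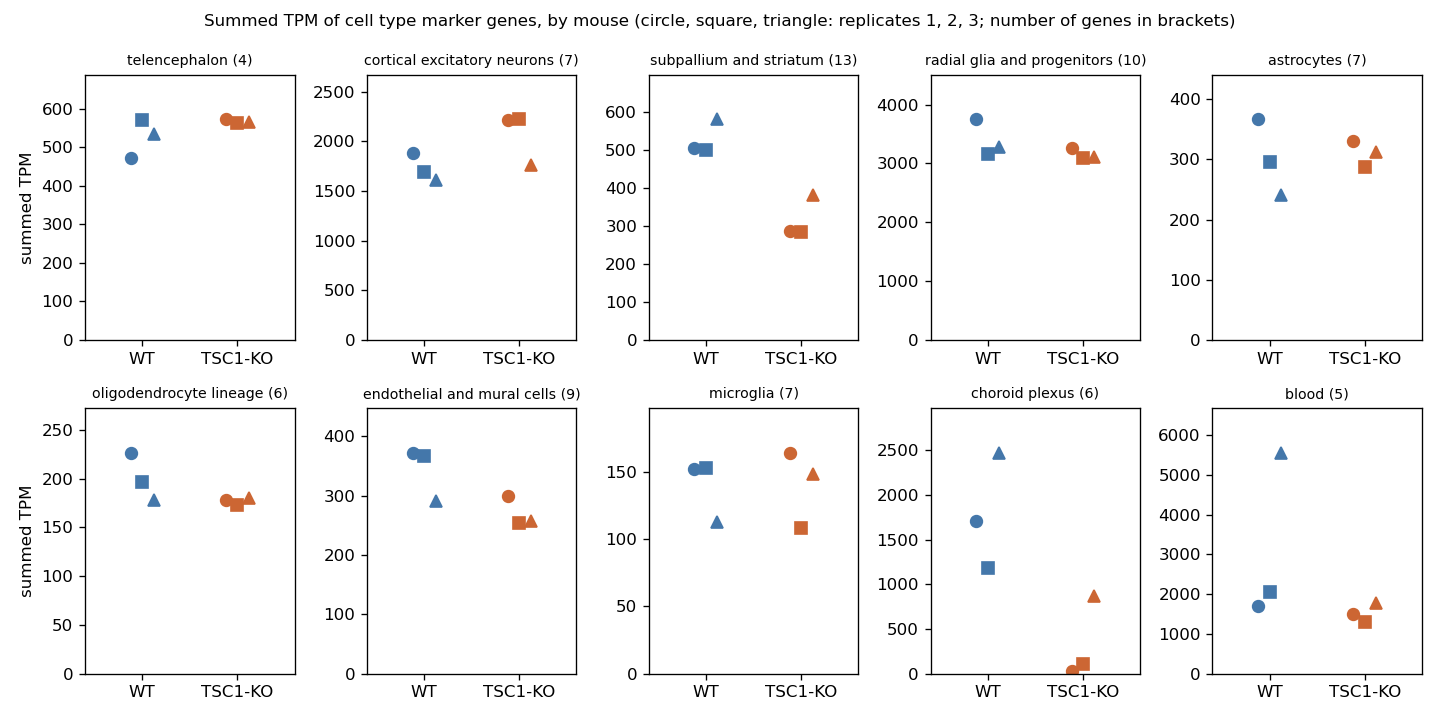
Summed TPM (vertical axes, from 0) of the marker genes of each cell type in each WT mouse (blue) and TSC1-KO mouse (orange), with the number of genes in brackets. The groups are apart for the subpallium and striatum (WT 500 to 581 TPM, TSC1-KO 285 to 381 TPM) and the choroid plexus, and overlap in the other 8 lists.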

How the data were processed

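Total RNA of telencephalon was made into libraries with the Illumina TruSeq RNA kit v2 and sequenced in paired ends. After quality checks and trimming, the authors placed the reads on mm10 by MapSplice2 and estimated gene abundance by RSEM (version 1.2.12 in the submitters' processing notes). The deposited expected counts are RSEM's estimates of reads per gene, not normalized, and the deposited TPM values are RSEM's length-corrected shares. The FPKM and effective lengths that the authors deposited served for a check of the order of levels and for 1 alternative.

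The expected counts, rounded to whole numbers, were tested over all genes with edgeR 4.0.16 in R 4.3.3 (TMM, filterByExpr, quasi-likelihood test, Benjamini-Hochberg adjustment, called below 0.05). Alternatives used RLE or upper quartile scaling, no filter, at least 10 counts in every sample, DESeq2 1.42.0, limma 3.58.1 on log2(TPM + 1) or log2(TPM + 0.1), effective length offsets, a replicate block, and each mouse left out. Counting groups that do not overlap on TPM instead of CPM was chosen after seeing the data. The study's own permutation-based test was not rerun. The scripts were tested on simulated data.

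The feedback genes, pathway lists and marker lists were chosen with earlier results of these data known. Each feedback gene is named, and from each pathway list the called genes and the 2 largest differences among genes with a mean of at least 1 TPM. Called genes are named from marker lists, and the 3 closest patterns for the most abundant and the called feedback genes. Each feedback gene has 1 transcript in the tables, so transcript length could not differ. Positions are from the GENCODE M21 annotation of GRCm38, the assembly of mm10. The study calls the mice independent and the controls littermates without Cre, but neither it nor the labels say which mice shared a litter, so p-values measure the spread between these samples, which were checked to be distinct libraries.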

Additional observations from a re-analysis of the deposited data

How the results depend on the processing

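The 2 calls among the 9 feedback genes, Dusp4 and Etv4, were made in 9 of the 10 other settings that kept all mice. In limma on log2(TPM + 1) with no filter 0 genes passed (Dusp4 adjusted p = 0.0738, Etv4 0.0818), and with each mouse left out in turn the count ran from 0 to 2. Over all settings the adjusted p lay between 0.00103 and 0.184 for Dusp4 and between 0.00957 and 0.160 for Etv4, and both genes were lower in TSC1-KO in each of them. The 5 calls in the other pathway lists became 9 with DESeq2, 3 with limma on log2(TPM + 1), 3 with an offset of 0.1, 1 with limma and no filter, 8 with the replicate block, and 0 to 12 with 1 mouse left out. Vegfa missed the threshold under upper quartile scaling (adjusted p = 0.0574) and in limma with no filter (0.0728), and Egfr (0.114 to 0.168) and Met (0.0573 to 0.104) missed it in all 3 limma settings.

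The sign of 3 feedback genes with small differences depended on single mice: the log2 fold change of Spry2 ran from -0.0808 to 0.00601 (above 0 without TSC1-KO replicate 3), that of Spred2 from -0.0220 to 0.104 (below 0 without WT replicate 3 or TSC1-KO replicate 2) and that of Etv5 from -0.0510 to 0.114 (below 0 without TSC1-KO replicate 2). The 4 feedback genes whose groups did not overlap were 4 on either scale and 6 without TSC1-KO replicate 3, with Dusp6 and Spry1 added.

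Over all genes, 212 calls became 637 with DESeq2, 346 with no filter, 95 with limma and no filter, and 29 to 799 with 1 mouse left out, and the cause was not tested. The share of calls that were higher in TSC1-KO was 56.6%, and 48.6% with upper quartile scaling, and it ran from 46.1% without TSC1-KO replicate 3 to 89.2% (33 of 37 calls) without TSC1-KO replicate 1 or 2. The replicate block made 551 calls and kept Dusp4 (adjusted p = 0.0260) and Etv4 (0.0325), but the numbers were not shown to pair the mice: deviations from the group means correlated by 0.267, -0.133 and 0.318 for replicates 1, 2 and 3, and WT replicate 2 correlated best with another number.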
